A study of Mus musculus with 4 samples.

Results

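Ciliated cells of the mouse lung were described from 1 library of single dissociated cells (singlets). Members are the barcodes that the authors' annotation calls ciliated cells and that carry their passing quality flag. There were 181 of them among 6084 lung singlets with counts, or 2.98% (exact binomial 95% interval 2.56 to 3.43). All 181 listed barcodes had counts. The series holds 4 libraries from C57BL/6J mice, an inbred strain: singlets and multiplets (clusters of attached cells) from whole lung, and the same pair from small intestinal epithelium. Tissues were broken up mechanically and with enzymes, and the labels name no treatment, age, mutant allele or separate animals. Each group is 1 library, so no test was run and no spread between animals can be given. Intervals in the text are exact 95% Poisson intervals for sums of counts and exact binomial intervals for shares, and cover counting error only.

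The other lung singlets fell into 12 classes by the authors' annotation, of which 10 had at least 30 barcodes. Type I pneumocytes (6 barcodes) and mesothelial cells (10 barcodes) were too few and were left out of comparisons with the highest other class. A ciliated barcode held 4198 to 25887 unique molecular identifiers (UMIs, each standing for 1 captured transcript end), with a median of 10193, and a median of 3779 genes. Mitochondrially encoded transcripts took a median of 5.69% of its UMIs. Club cells, the secretory cells of the small airways called Clara cells in the annotation, had 61 barcodes with a median of 16654 UMIs, and type II pneumocytes had 1009 with a median of 16009. No ciliated barcode sequence was shared with the multiplet library or with the intestinal singlets, although those libraries shared 2 and 15 barcodes with the lung singlets. Levels are given as CPM, the usual counts-per-million scale, from UMIs summed over a class. The classes were made from the same cells and genes, so every value that sets ciliated cells against other classes is a description.

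Multiciliated cells line the airways and carry many motile cilia, which beat together to move mucus out of the lung. The core of each cilium, the axoneme, is a ring of microtubule doublets around a central pair; dynein motor arms on the doublets drive the beat, while radial spokes and the nexin-dynein regulatory complex coordinate it. Cilia are built from basal bodies by intraflagellar transport, under a programme that includes the forkhead factor Foxj1, the regulatory factor X (RFX) proteins, Myb and Trp73.

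The label was checked against 4 markers. Foxj1 (GRCm38 chromosome 11, 116330704 to 116335399, minus strand), the master regulator of motile cilia, had 0 to 27 UMIs per ciliated barcode with a median of 9, and 3 barcodes had none. Ccdc153 (chromosome 9, 44240676 to 44247306, plus strand), a coiled-coil gene of motile cilia, had 1 to 52 UMIs with a median of 17. Tmem212 (chromosome 3, 27866066 to 27896368, minus strand), a membrane protein gene known as a marker of ciliated cells, had 1 to 51 with a median of 20. Tppp3 (chromosome 8, 105467493 to 105471526, minus strand), a tubulin polymerization-promoting protein gene, had 0 to 52 with a median of 18, and 1 barcode had none. The markers were therefore present together in nearly all of these barcodes, and the data did not go against the label.

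Summed over the class, Foxj1 stood at 924 CPM (882 to 968) and at no more than 2.86 CPM in any other class of at least 30 barcodes. Tmem212 stood at 1817 CPM (1758 to 1877) against at most 2.75, and Ccdc153 at 1766 CPM (1708 to 1825) against at most 8.59. Tppp3 was less restricted, at 1826 CPM (1767 to 1887) in ciliated cells and 203 in alveolar macrophages. When every barcode was thinned at random to 2000 UMIs, a Foxj1 UMI was found in 82.3% of ciliated barcodes (76.0 to 87.6; 98.3% before thinning) and in at most 0.40% of any other of these classes. For Tppp3 the shares were 95.6% and 29.5%. Counting Foxj1, Ccdc153 and Tmem212 without Tppp3, ciliated barcodes had a median of 50 UMIs and a minimum of 2, while the highest of the 5903 other singlets had 15.

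Cilium RNA as a whole separated the class from the rest without overlap. The genes of 13 lists of cilium components, 274 in the table, took 2.00% to 7.83% of the UMIs of a ciliated barcode, with a median of 6.01%. The same genes took 0.03% to 1.51% in the other 5903 singlets, with a median of 0.44%. The lowest ciliated barcode thus lay above the highest barcode of any other class. The plot of cilium RNA per barcode shows this gap.

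**Figure D1:**
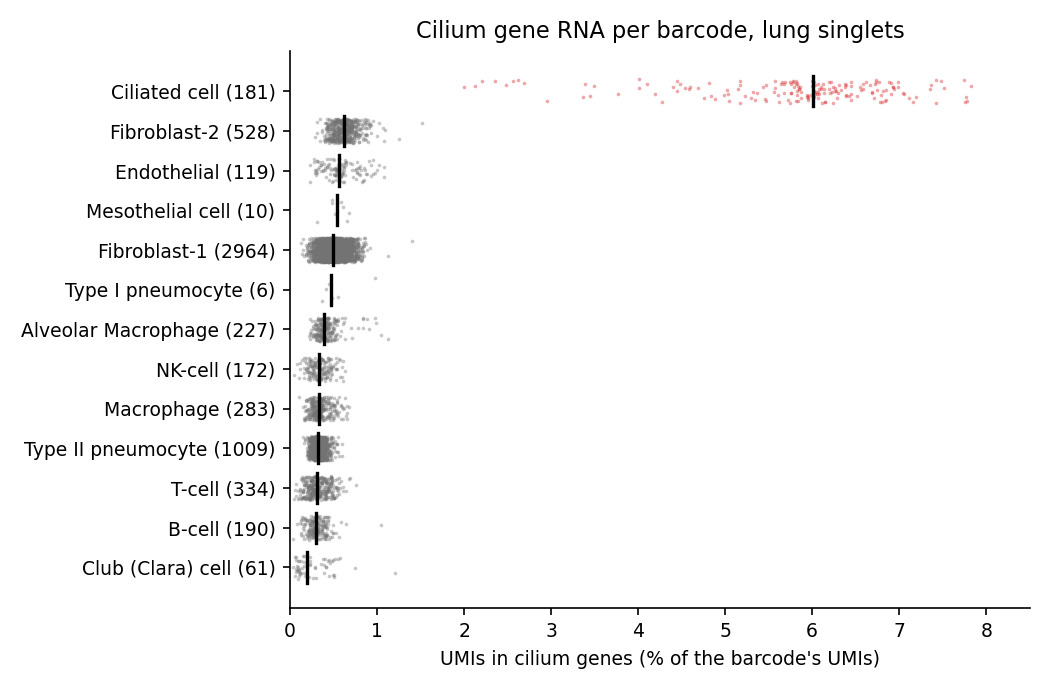
Each point is 1 lung singlet barcode. The horizontal axis gives the percent of its UMIs in the cilium genes, rows are the authors' classes with their number of barcodes, and black bars are class medians. The 181 ciliated barcodes lie between 2.00% and 7.83%, and all other barcodes lie at or below 1.51%.

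Of 271 cilium genes with at least 20 UMIs in the library, 227 were over 2 times as high in ciliated cells as in every other class of at least 30 barcodes, with classes below 3 UMIs set to 3. Of all 15958 genes with at least 20 UMIs, 8.52% met the same rule. With a stricter rule, over 5 times every other class with 10 CPM added to both sides and at least 50 UMIs in ciliated cells, 144 cilium genes were counted. Of all 6174 genes with 50 UMIs there, 412 (6.67%) passed it.

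Among the other regulators, Myb, a transcription factor that promotes multiciliogenesis, stood at 214 CPM against at most 34.3 in NK cells. Rfx3 and Rfx2, which bind the X-box motif of cilium genes, stood at 111 and 76.4 CPM against at most 15.7 and 26.3. Trp73, a factor of the p53 family, stood at 58.7 CPM against 0.53. Cdkn1c, an inhibitor of cyclin-dependent kinases, stood at 393 CPM against 129 in the class Fibroblast-2. E2f4 and E2f5, which act with the geminin family early in multiciliogenesis, did not stand out, at 28.8 and 32.9 CPM against 31.5 and 23.7 in the highest other class. The early regulators Mcidas and Gmnc had no UMI in any of the 181 barcodes, which by a limit of 3 UMIs allows a summed level of up to 1.52 CPM. In all, 6 of 10 measured regulators were over 2 times every other class.

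Genes of the basal body and of centriole amplification, the step that makes many centrioles in a cell before the cilia grow, differed widely in level. Deup1, a protein of the deuterosome on which centrioles are made, had 91 UMIs in 62 barcodes, and Ccno, another early gene, had 20 in 18. Cdc20b had 1 UMI, and the proliferation marker Mki67 had 1. Plk4, a kinase that starts centriole duplication, stood at 4.05 CPM against 25.8 in NK cells. In contrast, genes of finished basal bodies were high: Cep83, a distal appendage protein, at 532 CPM against 47.3, Cetn2 (centrin) at 347 against 120 and Fam92b at 259 against 0.86. Ccdc78, another deuterosome gene, was high as well, at 197 CPM against 1.52. Of 20 measured genes, 14 were over 2 times every other class.

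Dynein genes showed some of the widest gaps. Dnah5, the outer arm heavy chain gene often mutated in primary ciliary dyskinesia, stood at 721 CPM (684 to 759) against at most 1.43. Its relative Dnah8 stood at 4.05 CPM, below the 23.7 of endothelial cells. Dnah9 and Dnah11, the other outer arm heavy chains, were both present, at 317 and 220 CPM. The inner arm chains Dnah12, Dnah6 and Dnah3 stood at 756, 544 and 394 CPM, the second and the last against at most 1.48 and 0.59. The intermediate chains Dnaic1 and Dnaic2 stood at 147 and 147 CPM against at most 6.58 and 2.20. Dnah7a and Dnah7b (194 and 122 CPM) are close copies whose reads the counting may have split, so the value of either one is uncertain. Of 26 measured chains, 24 were over 2 times every other class.

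The light chains Dynlrb2 and Dynlrb1 separated into a ciliary and a general member, while Dynll1 and Dynll2 did not in this way. Dynlrb2 stood at 1407 CPM (1355 to 1460) and at most at 29.4 elsewhere, whereas Dynlrb1 stood at 167 CPM (150 to 187), within the 66.7 to 181 of the other classes. Dynll1, an LC8 light chain also used outside dyneins, stood at 2653 CPM against at most 913. Dynll2 stood at 140 CPM against 107. UMIs count transcript ends and were not divided by length.

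Dyneins are assembled in the cytoplasm and then anchored to the doublets. Of 17 genes on the list of assembly factors, 16 were over 2 times every other class. Among them were Cfap298 at 494 CPM against 33.7, Lrrc6 at 172 against 1.38 and Zmynd10 at 152 against 1.73. Tbccd1, counted on this list though its part in dynein assembly is not established here, was the exception, at 10.1 CPM against 13.8. Of 9 genes of the docking complex and its partners, 8 passed the rule. Ccdc39, a molecular ruler along the doublet, stood at 691 CPM (654 to 728) against 7.89. Its partner Ccdc40 stood at 223 against 1.71, and the docking subunit Armc4 at 146 against 0.53. Ccdc63 had no UMI.

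Genes of the structures that coordinate the beat all passed where measured. All 11 measured genes of the nexin-dynein regulatory complex and all 19 measured genes of the radial spokes were over 2 times every other class. Drc1, a core subunit of the regulatory complex, stood at 333 CPM against 2.75, and Gas8 at 197 against 15.8. Rsph1, Rsph9 and Rsph4a, proteins of the spoke head, stood at 746, 390 and 367 CPM against at most 4.13, 12.7 and 1.43. Rsph3a and Rsph3b, near copies that may share reads, stood at 18.7 and 18.2 CPM.

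Of 24 central pair genes, 23 passed the rule, with Cfap99 outside; it had 16 UMIs (8.10 CPM), too few for the rule against small classes. Spag17, a large projection protein, stood at 559 CPM against 2.86, Spef2 at 476 against 8.45 and Hydin at 422 against 2.60. Inside the doublets, 28 of 29 genes passed. Cfap126, Cfap53 and Cfap45 stood at 610, 541 and 440 CPM, and Tekt1 (tektin 1) stood at 318 against 1.43. The tektins differed among themselves: Tekt4 and Tekt2 stood at 177 and 160 CPM, Tekt3 at 10.6, and Tekt5 at 2.02, against 2.63 in endothelial cells.

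Genes that many cell types need for a single primary cilium were also higher, but with smaller gaps. Of 35 intraflagellar transport genes, 32 passed, led by Traf3ip1 (Ift54) at 758 CPM against 15.8 and Ift43 at 536 against 81.7. Ift88 stood at 307 against 15.4, and Ift20, which also works at the Golgi, stood at 338 against 213 and did not pass. Of 26 genes of the BBSome, a coat complex for membrane proteins of cilia, and of related membrane traffic, 22 passed, among them Arl3 at 380 CPM against 86.4 and Rpgrip1l, a gene of the transition zone, at 254.

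Tubulins divided by isotype. Tubb4b, the beta tubulin of axonemes, stood at 1891 CPM (1831 to 1952) against at most 271, while Tubb5, the general beta tubulin, stood at 34.4 CPM (26.7 to 43.6), below the 57.3 to 453 of the other classes. Tuba1a stood at 1720 CPM against 651, and Tuba1b at 318 against 299. These alpha tubulin genes are near copies, so their split is uncertain. Enzymes that add or trim glutamate or glycine side chains of tubulin included Ttll3 at 249 CPM against 25.5, Ttll6 at 133 against 1.38 and Agbl2 at 102 against 1.58. In all 12 of 26 tubulin genes and modifiers passed. Among kinases and adenylate kinases of cilia, 16 of 23 passed, led by Ak7 at 523 CPM against 1.43 and Stk33 at 237 against 1.28. The plot of cilium genes by role gives all measured genes.

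**Figure D2:**
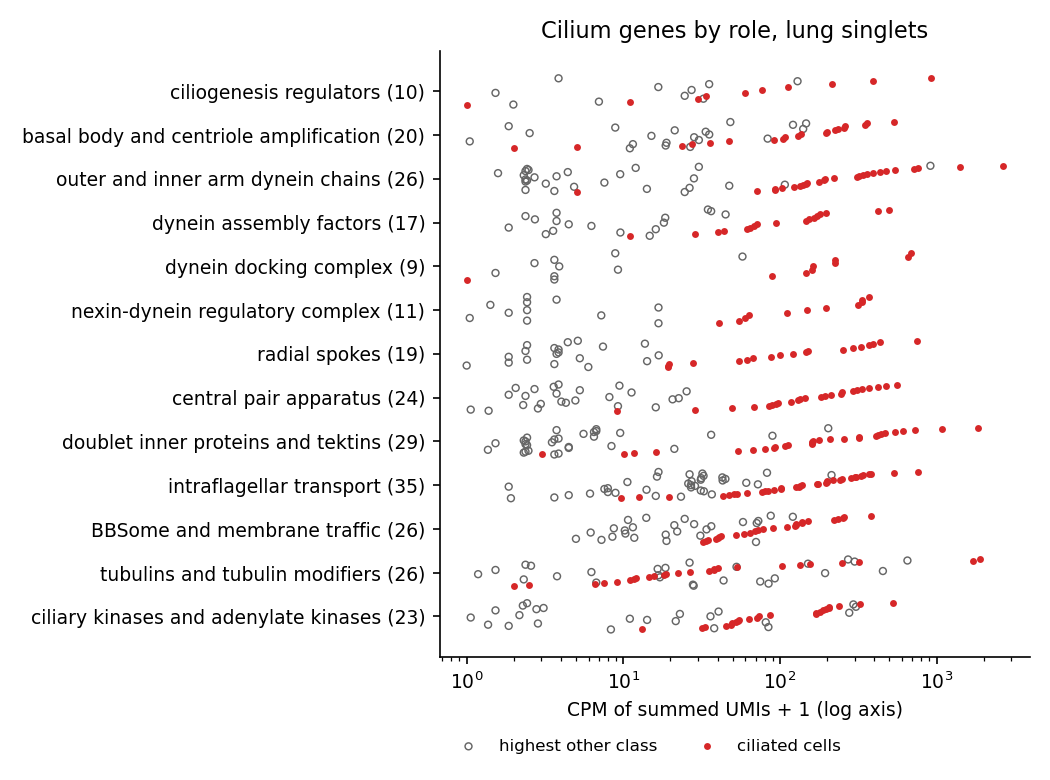
Each filled point is a cilium gene's CPM in ciliated cells and each open circle is the same gene's CPM in the highest other class of at least 30 barcodes, both plus 1 on a log axis. Rows are roles with their number of measured genes, and genes are ordered by level in ciliated cells. Radial spoke and regulatory complex genes are set apart from the open circles, while tubulins overlap with them.

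Outside the lists stood 268 of the 412 genes over 5 times every other class, of which 49 of the 412 have only a Rik or Gm name. Together the 412 took 11.3% of the UMIs of ciliated cells and 0.241% of those of the other singlets. Sec14l3, a lipid-binding gene, was the highest, at 3512 CPM (3430 to 3596) against 249 in club cells. Cyp2s1, a cytochrome P450 gene, stood at 957 CPM (915 to 1001) against 12.8. Cd24a, a surface glycoprotein gene, stood at 1644 against 231 in B cells. Elof1, an elongation factor gene, stood at 1458 against 63.3, and the chaperone gene Hspa4l at 1278 against 88.5. Mlf1 stood at 679 CPM against 4.40, Riiad1 at 787 against 7.09, Sntn (sentan, a protein of the cilium tip) at 488 against 1.91 and the cadherin gene Cdhr3 at 485 against 2.75. AU040972, annotated as an antisense RNA gene, stood at 792 CPM (754 to 833) against 2.57. No source used here says whether the counting used strand, so its reads cannot be told apart from those of overlapping genes.

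Across the 11 classes with at least 30 barcodes, the genes whose levels were most like those of Foxj1 were Rsph4a, Dnah5, Ctxn1, Erich3, Agr3, Fank1, Efcab10, Drc3, Spag17 and Ak7, each with a Pearson correlation of log2(CPM + 10) of 0.9989 to 0.9995. All classes come from 1 library, and a single high class fixes such values, so they are a ranking only. Agr3, a disulfide isomerase gene, stood at 251 CPM against 1.43, and Ctxn1 at 230 against 2.86.

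Promoters of the 412 genes were searched because RFX proteins bind the X-box. The RefSeq promoter table (GRCm38.p6) matched 323 of the genes with 403 promoters, each running from 250 bases before to 50 after a start site. The 6-base core GTTGCC, on either strand, lay in 36.2% of these promoters and in 12.5% of all 32851 promoters in the table. The full X-box, searched as GTNNCC, 2 free bases and GGNAAC, lay in 9.93% against 1.29%. The form with 1 free base between these parts lay in 4.71% against 0.618%. Any full form may contain the core site, these forms were chosen after the values were seen, and a gene can have several promoters that overlap. The form with GTTGCC, AT and GGNAAC in a row lay in 0 of the 403 and in 0.07% of all. The forkhead core TGTTTAC lay in 4.96% (3.06 to 7.56) against 3.65%. Among 17256 promoters of the other genes in the lung counts, it lay in 2.90%, GTTGCC in 12.2% and the full X-box in 1.39%. A match describes letters, not binding.

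Windows of 250 bases before the start are printed for 5 of the leading genes, to show where these letters lie. They are not the first 5 by ratio (Mlf1 ranks 14 and Lrriq1 32), so they do not stand for the share of promoters with a site. Dnah5, Dnah6, Ak7 and Spag17, which rank above Lrriq1, hold none of these forms in this window. Capitals mark the core site or a full X-box form, on either strand, and each sequence reads 5′ to 3′ toward the start of its gene. Tmem212, which leads the class by its ratio, holds none of these forms. Ccdc153 has 1 core site that begins 152 bases before the start, and Mlf1 has 1 at 105 bases. Fam183b, a gene of the doublet interior at 1089 CPM against 5.72 elsewhere, has a core site at 67 bases and the shorter X-box form at 16 bases. Lrriq1, at 448 CPM against 2.75, has the full X-box at 19 bases.
Tmem212 (chr3:27896369-27896618, minus strand): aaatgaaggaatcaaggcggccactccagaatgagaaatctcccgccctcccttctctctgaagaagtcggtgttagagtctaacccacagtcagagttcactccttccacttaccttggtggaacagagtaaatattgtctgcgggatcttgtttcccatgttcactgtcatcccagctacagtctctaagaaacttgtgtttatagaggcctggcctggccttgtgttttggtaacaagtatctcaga
Ccdc153 (chr9:44240427-44240676, plus strand): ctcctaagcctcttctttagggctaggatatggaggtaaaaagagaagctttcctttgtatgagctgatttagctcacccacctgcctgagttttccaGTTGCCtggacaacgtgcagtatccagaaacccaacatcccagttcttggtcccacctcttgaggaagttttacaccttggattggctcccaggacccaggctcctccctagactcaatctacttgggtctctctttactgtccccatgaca
Mlf1 (chr3:67373847-67374096, plus strand): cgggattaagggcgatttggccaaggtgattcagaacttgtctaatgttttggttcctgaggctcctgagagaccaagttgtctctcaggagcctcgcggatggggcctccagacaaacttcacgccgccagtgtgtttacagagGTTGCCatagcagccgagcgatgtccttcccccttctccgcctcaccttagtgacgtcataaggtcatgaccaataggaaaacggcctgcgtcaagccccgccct
Fam183b (chr11:58801961-58802210, minus strand): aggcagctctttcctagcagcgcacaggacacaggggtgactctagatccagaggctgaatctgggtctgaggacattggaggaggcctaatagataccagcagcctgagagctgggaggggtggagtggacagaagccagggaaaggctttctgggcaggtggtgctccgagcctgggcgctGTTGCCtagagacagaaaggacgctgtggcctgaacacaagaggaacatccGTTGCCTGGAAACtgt
Lrriq1 (chr10:103236323-103236572, minus strand): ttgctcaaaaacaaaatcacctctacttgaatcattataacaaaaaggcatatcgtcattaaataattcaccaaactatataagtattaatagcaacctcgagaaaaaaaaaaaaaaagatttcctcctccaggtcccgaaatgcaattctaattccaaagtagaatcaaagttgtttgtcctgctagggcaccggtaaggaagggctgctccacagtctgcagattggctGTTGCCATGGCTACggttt

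Of 8 marker genes of club cells, 0 were over 2 times every other class in ciliated cells. Against the other singlets pooled, 4 of the 7 tested were over 2 times, beside 1677 of all 7384 genes tested (22.7%). After TMM scaling (explained below), 3 were over 2 times and 1 was under 0.5 times, beside 1294 and 1571 of all 7384. All classes held some RNA of the secretoglobins, which free RNA in the cell suspension can carry into any droplet, and ciliated cells held more of it than the other classes outside club cells. Cyp2f2, Cbr2, Aldh1a1 and Hp stood much higher against the secretoglobins in ciliated than in club cells. Scgb1a1, the main secretoglobin of club cells, stood at 8980 CPM (8849 to 9113) in ciliated cells, 506586 in club cells and 454 to 1856 in the 9 other classes of at least 30 barcodes. Scgb3a2, a second secretoglobin, stood at 147 CPM (130 to 165) against 10793 in club cells and at most 26.1 elsewhere. For each 100 UMIs of Scgb1a1 there were 1.63 of Scgb3a2 in ciliated cells and 2.13 in club cells, so this pair kept a similar ratio.

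Cyp2f2, the P450 enzyme that activates naphthalene in club cells, did not keep it. Ciliated cells had 1666 CPM (1610 to 1724), club cells 3023 (2924 to 3124), and the other 9 classes 2.63 to 38.2. That made 18.6 UMIs per 100 of Scgb1a1 in ciliated cells and 0.60 in club cells. Cbr2, a carbonyl reductase gene, stood at 4236 CPM in ciliated cells, 3350 in club cells and 2023 in type II pneumocytes. Aldh1a1, which makes retinoic acid, stood at 1547 CPM in ciliated cells, 689 in club cells and 1355 in Fibroblast-1. Hp (haptoglobin) stood at 802 CPM against 2351 in club cells and 619 in type II pneumocytes. CPM in club cells is held down by Scgb1a1 itself, which made up most of the UMIs there. After scaling by the trimmed mean of M values (TMM, factors 1.16 for ciliated and 0.507 for club cells), club cells stood above ciliated cells for every one of these 6 genes, by little for Aldh1a1 (1359 against 1328 CPM after scaling). The other members of the list were lower. Kcnk2, a potassium channel gene, stood at 65.3 CPM in ciliated cells, 81.3 in club cells and 66.6 in Fibroblast-1, and Chad (chondroadherin) had 2 UMIs (1.01 CPM) against 45.3 CPM in club cells and 32.1 in Fibroblast-2. The plot of club genes by class shows the 6 genes named first.

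**Figure D3:**
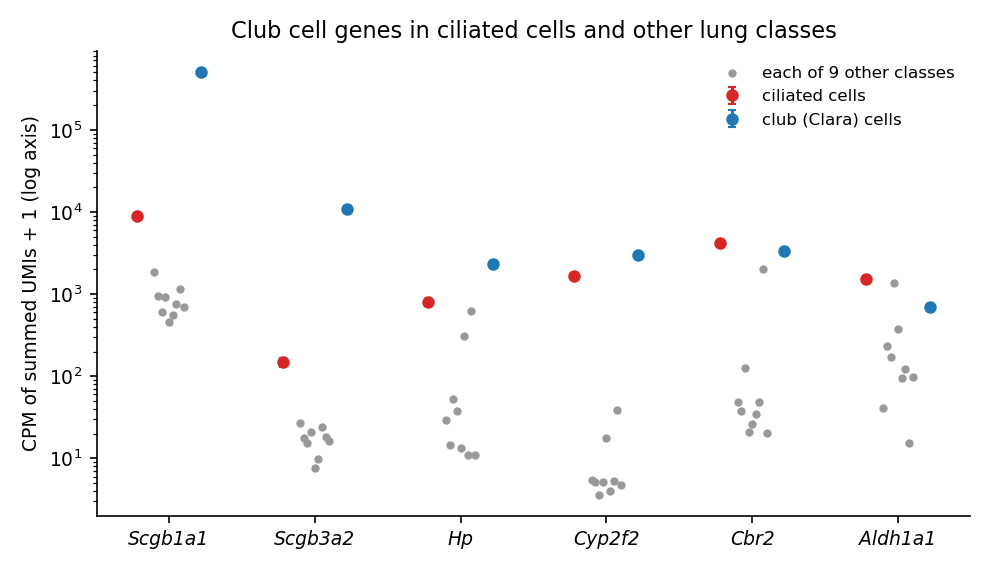
CPM of summed UMIs plus 1 on a log axis for 6 genes of club cells. Red points are ciliated cells and blue points club cells, with exact 95% Poisson intervals mostly smaller than the symbols; grey points are the 9 other classes of at least 30 barcodes. For Cyp2f2 the ciliated point at 1666 CPM lies far above the grey points, which end at 38.2.

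Over all genes, cilium and club genes included, 1677 of 7384 tested (22.7%) were over 2 times the other singlets pooled, with 10 CPM added, and 1207 (16.3%) were under 0.5 times. After TMM scaling, 1294 of the 7384 were over 2 times and 1571 were under 0.5 times. The median log2 ratio over all genes tested was 0.22 in CPM and -0.14 after TMM scaling, a shift of -0.36. The higher share of these calls was 58.1% in CPM and 45.2% after TMM. Values below are to be read against that shift.

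Of 23 tested epithelial genes, 19 were over 2 times the pool and none under 0.5 times, in CPM and after TMM alike. Their median log2 ratio was 2.10 in CPM and 1.77 after TMM. Epcam, an adhesion protein, stood at 661 CPM against 286 in type II pneumocytes, Cldn3 (claudin 3) at 1320 against 543, and Krt8 (keratin 8) at 908 against 256. Sox2, a factor of the conducting airways, stood at 131 CPM against 83.0 in club cells, an order that reverses after TMM scaling. Nkx2-1, a factor of lung epithelium, stood at 152 against 320 in type II pneumocytes. Among 17 genes of calcium binding, 12 were over 2 times the pool and 1 under 0.5 times, with a median log2 ratio of 2.25 (1.94 after TMM). Capsl stood at 306 CPM against 32.5, while S100a10 was lower, at 168 against 1424 in NK cells. For planar cell polarity, which aligns cilia, 6 of 7 tested genes were over 2 times the pool, 5 after TMM. Celsr1, a cadherin of this pathway, stood at 79.4 CPM against 24.4, and Vangl2 at 2.02 against 15.8 in endothelial cells.

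Mitochondrial genes were higher than the pool in CPM and nearly level with it after TMM scaling. Their medians stayed above those of all genes tested (0.22 in CPM and -0.14 after TMM). Of 30 nuclear genes of oxidative phosphorylation, 0 were over 2 times and 0 under 0.5 times the pool. Their median log2 ratio was 0.43 in CPM and 0.01 after TMM. For 13 mitochondrially encoded genes the medians were 0.48 and 0.04, and 2 were over 2 times the pool in CPM and 0 after TMM.

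Detoxifying genes were mixed. Of 25 tested antioxidant and aldehyde genes, 13 were over 2 times the pool and 2 under, or 10 and 3 after TMM. Gstm1 stood at 1467 CPM against 720 in the highest other class, and Aldh3b1 at 740 against 81.5. Hmox1 was low, at 8.60 CPM. Among P450 and flavin oxidase genes, Cyp2b10 stood at 316 CPM against 23.4 and Cyp2a5 at 130 against 35.1, although Cyp2a5 UMIs were found in 29.3% of the barcodes. Cyp2e1 and Cyp1a1 had no UMI.

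Of 7 tested ion and water transport genes, 4 were over 2 times the pool and 2 under 0.5 times, in CPM and after TMM. Scnn1a, a subunit of the sodium channel ENaC, stood at 221 CPM against at most 60.4, whereas its partners Scnn1b and Scnn1g stood at 1.01 and 1.52. Cftr, the chloride channel, had 0.51 CPM, and Aqp5, a water channel, 12.1 against 464 in type II pneumocytes. In the Notch pathway, which chooses between secretory and ciliated fates, the ligands Jag1 and Jag2 stood at 201 and 77.4 CPM against at most 42.1 and 27.6. Notch1 stood at 52.6 CPM against 255 in endothelial cells, and Dll1 and Dll4 had no UMI.

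Genes of antigen presentation were low against the pool, but not against every class. Class II genes summed to 339 CPM, with 84.3% of these UMIs in 10 barcodes. That was above club cells (240), T cells (136), NK cells (81.6), Fibroblast-1 (65.4) and Fibroblast-2 (106), and below the other classes of at least 30 barcodes. Class I genes summed to 1087 CPM, above club cells (557) and below the others. For both sums the order against club cells reverses after TMM scaling (factors 1.16 for ciliated and 0.507 for club cells). All 6 tested class II genes were under 0.5 times the pool, with a median log2 ratio of -2.98; Cd74, the invariant chain, stood at 186 CPM against 11645 in B cells. Of 6 tested class I genes 3 were under 0.5 times the pool in CPM and 6 after TMM. B2m stood at 190 CPM, against 1952 in the class Macrophage and 107 in club cells, and TMM scaling reverses the order against club cells. Secreted defence genes divided: Wfdc2 stood at 3105 CPM against 4457 in club cells, while Bpifa1 and Ltf, products of secretory cells, stood at 12.6 and 0.51 against 14263 and 233. In the dissociation response, 1 of 16 immediate early genes was over 2 times the pool and 6 were under, or 0 and 7 after TMM. Fos stood at 3064 CPM, between the 827 of NK cells and the 3913 of Fibroblast-2. Heat shock genes ran both ways: Hsp90aa1 stood at 6440 CPM against at most 1346, while Hspa1b stood at 306 against 3463 in endothelial cells. Of 4 tested interferon genes, 0 were over 2 times the pool and 3 were under 0.5 times, in CPM and after TMM. Of 12 measured cell cycle genes, 1 had enough UMIs for the comparison with the pool, and it was neither over 2 times nor under 0.5 times.

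The genes lowest against the other lung epithelium (type II pneumocytes and club cells summed) were mostly surfactant and lamellar body genes. Type II pneumocytes gave 16204009 UMIs to that sum and club cells 1168692, so the ranking is mainly one against type II pneumocytes. Sftpa1 stood at 309 CPM in ciliated cells and 25673 in that epithelium, Cxcl15 at 93.1 and 7584, Lyz1 at 9.61 and 1790, and Scd1, a lipid desaturase gene, at 58.7 and 2764. Sftpc, a surfactant gene with UMIs in every class, stood at 2901 CPM in ciliated cells. Of its 5734 UMIs there, 3836 came from 1 barcode, and without that barcode the level was 972 CPM. The lowest other class of at least 30 barcodes had 1236 CPM with all its barcodes kept, so these values are not fully alike.

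Some ciliated barcodes carried RNA of other lineages. In 16 of 181, a marker list of another lineage took at least 1% of UMIs, a limit set after the values were seen. The list was fibroblast in 14, type II pneumocyte in 2, and alveolar and interstitial macrophage in 1 each, with some barcodes counted under more than 1 list. Scrublet, which scores barcodes for being 2 cells in 1 droplet, marked 14 of these 16 and 20 ciliated barcodes in all. The 16 had a median of 16579 UMIs against 9970 in the other 165, and cilium genes took 3.16% of their UMIs against 6.06%. Without them, 231 cilium genes were over 2 times every other class. The 8.52% of all genes given above is for all 181 barcodes, and no share for the smaller set is given here. Basal (1 UMI over all barcodes), neuroendocrine (0) and mesothelial (1) marker lists were at or near 0.

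Variation between ciliated barcodes was measured as the variance-to-mean ratio of UMIs after thinning to 3000 per barcode, for genes with a mean of at least 0.2. A ratio of 1 is what counting alone gives. The median gene had 1.07, and 122 of 2912 genes were over 2, or 77 of 3002 without the 16 barcodes. Of 193 cilium genes with that mean, 2 were over 2, Tubb4b (2.47) and Cdkn1c (2.39), and their median was 1.06. Foxj1 had 1.24, Dnah5 1.44, Dnah12 1.69 and Tppp3 1.99. The highest ratios belonged to genes of other cells: Sftpc (205), Mgp (49.0), Dcn (26.9), Lyz2 (25.5) and Ccl5 (21.9), whose UMIs came mainly from a few barcodes. Scgb1a1 had 48.2 with UMIs in all 181. Without the 16 barcodes, the highest were Scgb1a1 (49.9), Ccl5 (19.7, with UMIs in 11 of 165 barcodes), Malat1 (14.0), S100a6 (13.3), Cd74 (8.23), AY036118 (7.93) and AU040972 (7.43). Lower in the same order, and chosen because they appear in the next paragraph or among the P450 genes, were Nupr1 (5.18), Cyp2a5 (4.67), Ifitm1 (4.11), Ly6a (4.11) and Sult1d1 (4.01).

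Several of these variable genes moved together. A principal component analysis of 7762 genes in the 165 barcodes, after removal of the trend with depth, was used to pick 2 sets of 10 genes. The first set was Ifitm1, Sult1d1, Nupr1, Basp1, AU040972, Ly6a, Aldh1a1, Fth1, Pcp4l1 and Atp5e. The second was Cldn18, Atp2b1, Cpm, Susd2, Nrg1, Wif1, Lpin2, Scgb1a1, Neat1 and Esm1. They are the ends of the second component, which held 1.44% of the variance; immediate early genes and Id1, Id2 and Id3 were dropped from its second end. The component was picked after all of the first 3 had been looked at in singlets and in multiplets, and the sets were trimmed after that, so the values below are a description of chosen genes.

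Across the 165 singlets, the mean levels of the sets had a Spearman correlation of -0.72, a value that the choice of opposite ends fixes. Depth correlated with the first set at 0.33 and with the second at -0.18. In 121 multiplets with ciliated RNA (defined below), the same sets gave -0.51. They gave -0.53 in the 104 multiplets whose unthinned percent of club UMIs was no higher than in the highest ciliated singlet. That percent is a different measure from the thinned counts used below. For the untrimmed ends with 10 genes, the 3 components gave -0.26, -0.41 and 0.25 in the multiplets. Of the 20 genes, 19 correlated more with their own set than with the other in the multiplets, Neat1 being the exception, but Scgb1a1 did so only as -0.259 against -0.260. The plot of both gene sets shows a continuous spread without a gap.

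**Figure D4:**
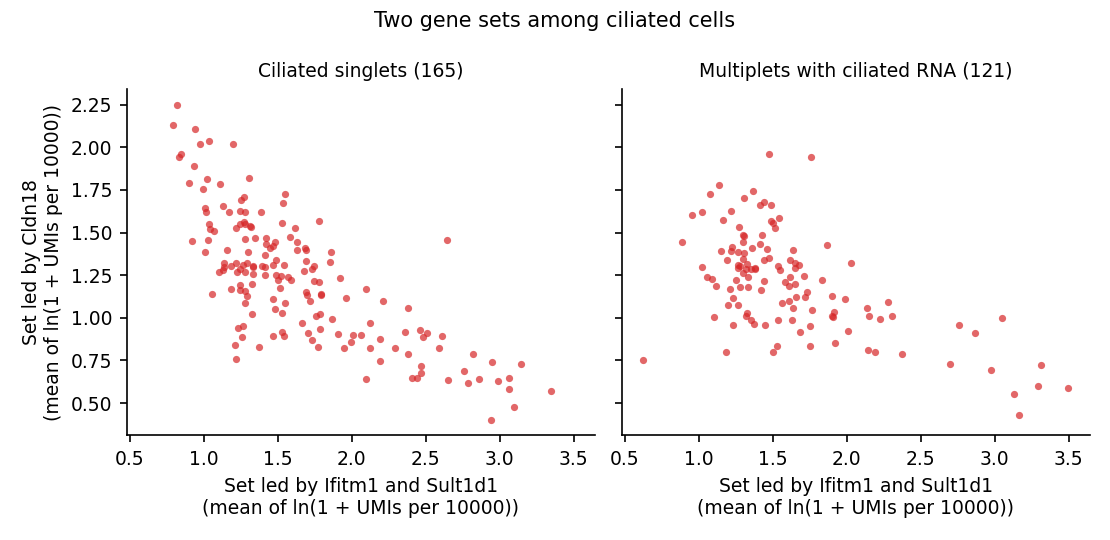
Each point is 1 barcode, and the axes are the mean log-normalised level over the 10 genes of each set. The left panel shows the 165 ciliated singlets without RNA of another lineage (Spearman correlation -0.72), and the right panel the 121 multiplets with ciliated RNA (-0.51).

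Pairs of single genes across the sets show the same pattern. The sets are opposite ends of a component fitted to these singlets and picked with the multiplets seen. Counts of both genes below the product of shares are therefore partly fixed by that choice. The pair given first departs most from the product among the singlet pairs looked at. Sult1d1, a sulfotransferase gene, and Cldn18, a claudin gene, were both found in part of the cells after thinning to 4000 UMIs: 31 of 165 barcodes had Sult1d1, 60 had Cldn18 and 0 had both, where the product of the shares gives 11.3. In the multiplets 20 of 121 had Sult1d1, 42 had Cldn18 and 2 had both, where the product gives 6.94. Ly6a (47 barcodes) and Cldn18 were together in 8 singlets, where the product gives 17.1. AU040972 (114) and Susd2 (56), another pair across the sets, were together in 37, where the product gives 38.7, so not all pairs avoided each other. Several of these genes are not particular to ciliated cells. Sult1d1 stood at 137 CPM in ciliated and 517 in club cells. Ifitm1 stood at 398 in ciliated and 237 in club cells, an order that reverses after TMM scaling. Ly6a stood at 250 in ciliated, 94.1 in club and 1757 in endothelial cells. Cldn18 stood at 244 CPM in ciliated cells and 891 in type II pneumocytes, whereas AU040972, Susd2 and Esm1 stood at no more than 2.57 CPM in club cells and type II pneumocytes. Esm1 was shared with another class, at 157 CPM in ciliated and 35.5 in endothelial cells. The part of RNA from those cells in the pattern was not tested.

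Ciliated RNA was then followed in the lung multiplet library, whose barcodes are not members of the class. It had 4729 barcodes with 5006 to 145206 UMIs. After thinning to 5000 UMIs, 168 of them (3.55%, 3.04 to 4.12) had at least 5 UMIs of the 4 markers, against 99.4% of 173 ciliated singlets and 0.717% of 4600 other singlets of that depth. Because Tppp3 is shared with fibroblasts and macrophages, a stricter rule was added after the data were seen: at least 20 UMIs of Foxj1, Ccdc153 and Tmem212 without thinning. It took 121 multiplets (2.56%), 169 of 181 ciliated singlets and 0 of 5903 other singlets. The markers were nearly all or none, with 4416 multiplets at 0 UMIs, 182 at 1 to 3 and 10 at 4 to 19.

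In the 121 multiplets, cilium genes took 0.867% to 8.56% of UMIs with a median of 5.82%, and in 96 of them the share was at or above 4.28%, the level that 163 of 181 ciliated singlets reached. The other 4608 multiplets had a median of 0.407%. Of the 412 leading genes of ciliated singlets without the 4 markers, 408 were tested, and all 408 were over 1.5 times as high in the 168 multiplets as in the rest (14.1% of all 14837 genes tested) and 408 in the 121 (14.7%). All 408 were also over 3 times as high in the 121, a rule that 5.48% of all genes tested met. In the 121 multiplets Spag17 stood at 346 CPM against 0.53 in the others, Fam183b at 787 against 1.55, Sec14l3 at 2486 against 64.8 and Cyp2s1 at 614 against 8.56.

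Multiplets are clusters of at least 2 cells by their label, so RNA of a second type was looked for in the 121. Club RNA was the clearest. After thinning to 5000 UMIs, 8 club genes summed to 11 to 301 UMIs in ciliated singlets, with a median of 72. In the 121 multiplets the range was 12 to 3227 with a median of 84, and 18 multiplets (14.9%) lay above every ciliated singlet, 17 of them at 500 UMIs or more. The 58 club singlets of that depth had a median of 2733, with a minimum of 2. In the 18 multiplets Scgb1a1 stood at 507902 CPM and Foxj1 at 180.0 CPM, cilium genes took a median of 1.56% of UMIs, and the median depth was 59876 UMIs. In the other 103, Scgb1a1 stood at 7736 CPM and Foxj1 at 922, cilium genes took 6.01%, and the median depth was 12752 UMIs. The 18 thus held both RNAs, and the 103 had club RNA in the range of ciliated singlets. The plot of club RNA shows the gap between them.

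**Figure D5:**
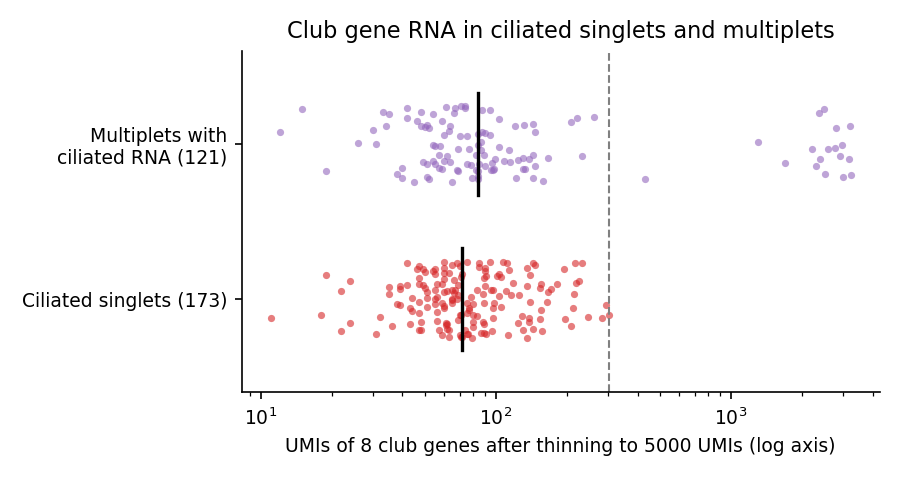
Each point is 1 barcode, placed by its UMIs of 8 club genes after thinning to 5000 UMIs, on a log axis. Black bars are medians, 72 in 173 ciliated singlets and 84 in 121 multiplets with ciliated RNA, and the dashed line is the highest ciliated singlet (301). Of the multiplets, 18 lie to the right of it.

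With club and pneumocyte lists set aside, few other partners were seen. Of the 121 multiplets, 111 had no other marker list at 20 UMIs or more, as did 155 of 173 ciliated singlets. Fibroblast lists reached 20 UMIs in 5.79% of the 121 and 8.67% of ciliated singlets. The endothelial list had at least 5 UMIs in 5.79% (2.36 to 11.6) of the 121, 12.4% of the other multiplets and 0 of 173 ciliated singlets; 3 counts as the limit would make 1.73%. Type II pneumocyte genes had at least 5 UMIs in 52.1% (42.8 to 61.2) of the 121, against 78.5% of the other multiplets and 80.3% of ciliated singlets; at 20 UMIs the shares were 9.92%, 52.4% and 2.31%. Whether the 103 multiplets with club RNA in the range of ciliated singlets hold several ciliated cells or 1 cannot be told apart from these counts.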

How the data were processed

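Libraries were made with Chromium Single Cell 3′ v3 chemistry, per the labels. The counts are whole numbers of UMIs per gene and barcode as deposited by the authors, made with Cell Ranger 4.0.0 on mm10, per the submitters' processing notes. Class names and the quality flag come from the authors' annotation; how they were made is not given here. Of 8410 listed lung singlets, 2326 did not carry the passing flag, and the 6084 analysed held 56639425 UMIs in 19647 genes. The multiplets held 66277622 UMIs in 20147 genes. The members, gene lists and alternatives were chosen with earlier results of these data known. The 1% limit for other lineages, the rule of 20 UMIs of 3 markers, the minimum of 20 UMIs, the floor of 3 UMIs, the full X-box forms and the gene sets were chosen after the values were seen.

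UMIs were summed per class and scaled to CPM with 10 CPM added in ratios. A gene entered the pooled comparison with at least 50 UMIs in ciliated cells or expected from the pool. Genes named outside the lists were those with the largest ratio or level among the 412, the lowest against the other epithelium, the most variable, and those most like Foxj1. Thinning drew UMIs without replacement at a fixed seed. Doublets were not removed; Scrublet in scanpy 1.11.5 marked 126 lung singlets, and values without those marked are among the alternatives. TMM factors came from edgeR 4.0.16 in R 4.3.3; other steps used Python 3.11.15, numpy 2.4.6, pandas 2.3.3 and scipy 1.17.1. Scripts were tested on simulated data. Gene positions are GENCODE annotation on GRCm38, the assembly of mm10. Intestinal multiplets were not used.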

Additional observations from a re-analysis of the deposited data

How the results depend on the processing

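No paired analysis was possible because each group is 1 library, and no replicate could be left out for the same reason. The 227 cilium genes over 2 times every other class numbered 134 when type I and mesothelial cells were included, since 3 UMIs make 59.4 CPM among the 6 type I barcodes, and the 412 genes over 5 times numbered 136 with 50 CPM added in place of 10. TMM scaling gave 215 and 344. The matching shares of all genes are not given here for the 134 and the 215. The ciliated share was 3.62% among barcodes of at least 5000 UMIs, and the cilium share of UMIs was 4.18% without the tubulin, kinase, transport and BBSome lists. The summed level of the 8 club genes, 17445 CPM, was 18746 with barcodes weighted equally, 18677 without Scrublet-marked barcodes and 18585 without barcodes with RNA of another lineage. Genes with a variance-to-mean ratio over 2 numbered 74 when thinned to 2000 UMIs and 77 without those barcodes. Multiplets with ciliated RNA made up 6.85% at 3 marker UMIs, 2.43% at 10 and 2.56% by the rule of 20 UMIs of 3 markers. The forkhead core in place of GTTGCC lay in 4.96% of promoters. The 35 named genes were chosen for a high ratio or level in these same data, which largely fixes ratios above 1. Their ratios to the highest other class stayed above 1 in all 245 alternative values. With all classes used, Tppp3 stood at 2.18 and Sec14l3 at 2.27. Beyond class size and the added CPM, the cause of these differences was not tested. Depth limits low genes: 3 UMIs over all ciliated barcodes make 1.52 CPM.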

Other observations

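The leading genes of lung ciliated cells were also looked up in the singlets of the small intestinal epithelium, a tissue without multiciliated cells. Of the 412 genes, 268 are in that table. Their median level was 1.18 CPM in the intestine and 199 CPM in ciliated cells. The 2 tissues were counted in separate libraries, so the values stand side by side with no test.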
